A study of Mus musculus with 24 samples.

Results

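In liver of C57BL/6J mice, 2033 regions of open chromatin held a peak on high fat diet and after diet reversal and no peak on control diet. They were found by merging the peaks of 6 deposited lists wherever peaks shared at least 1 bp on chromosomes 1 to 19, which gave 49364 merged regions. Members were chosen by the presence of deposited peaks: a member was a merged region with a peak in the C57BL/6J HF list and in the C57BL/6J Reversal list and none in the C57BL/6J Control list. The rule took in 4.12% of all merged regions, 6.59% of those with a C57BL/6J HF peak and 6.66% of those with a C57BL/6J Reversal peak. These regions are called gained and kept here as a name for that list pattern only, since the 3 diets were separate groups and none was followed over time.

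The series used liver of 2 inbred strains, C57BL/6J and A/J. Control mice ate control diet for 16 weeks, HF mice ate high fat diet for 16 weeks, and Reversal mice ate high fat diet for 8 weeks and control diet for 8 weeks. For Reversal the diet tag instead reads 16 weeks on control diet; the treatment protocol was followed. FAIRE-seq was run on 2 libraries per strain and diet, 12 in all, and the deposited data give 1 peak list per strain and diet. In the Reversal group, fewer weeks on high fat diet and the change back of diet cannot be told apart. The labels used here give neither sex and age of the mice nor whether libraries came from separate animals, and the lists hold no sequencing depth. The label liver was not checked against marker genes, because the lists name no gene.

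FAIRE recovers DNA that is poorly crosslinked to protein after formaldehyde fixation, mostly DNA with few nucleosomes. Peaks of such DNA mark promoters, enhancers and other regulatory elements. Open chromatin in liver carries binding sites of hepatocyte transcription factors and nuclear receptors, and accessibility at distal elements can differ with diet, strain and time of day.

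With 1 list per group, no difference between lists has a replicate check, and no test was run. Intervals are 95% Wilson intervals for shares and Newcombe intervals for differences of shares, and they cover counting error only. Regions of 1 list share the same libraries and are not replicates. Signal per peak was computed by the authors, and its scale is unstated. It is used to rank peaks within a list, with the rank written as a percentage of the list and 0% as the strongest.

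The C57BL/6J Control list stood apart from the other 5, and every result below rests on it. Of the 2983 regions with a peak in exactly 5 of the 6 lists, 1478 lacked only the C57BL/6J Control peak, which is 49.5%. The corresponding numbers were 446 for C57BL/6J HF, 259 for C57BL/6J Reversal, 126 for A/J Control, 176 for A/J HF and 498 for A/J Reversal. By the rule, the 1478 regions are the members with a peak in all 3 A/J lists, which are counted again below. The Control list of C57BL/6J also held the most regions found in no other list, 3754, against 471 to 1841 in the other lists. Control diet and this list cannot be told apart as the source of the pattern.

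**Figure D1:**
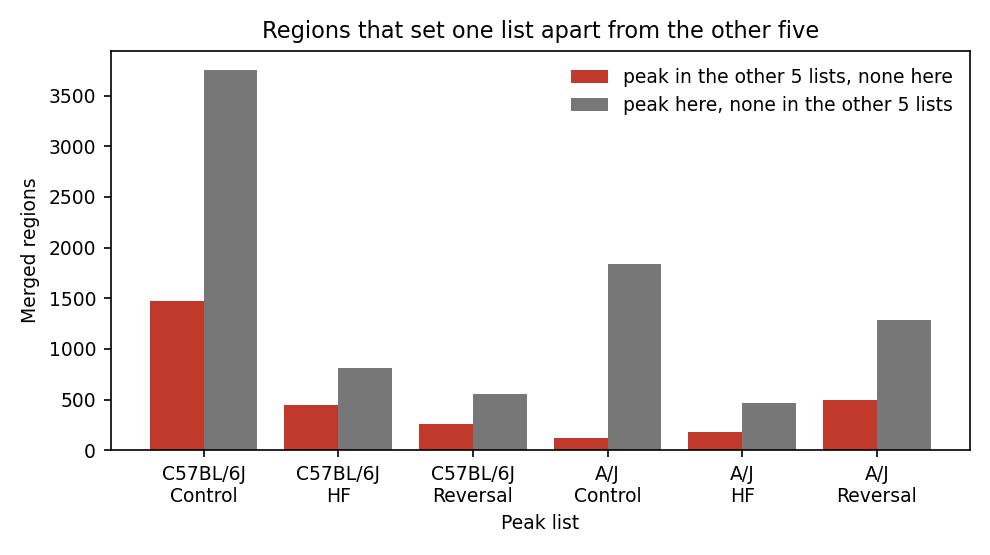
Number of merged regions (y axis) that set each peak list (x axis) apart: red bars count regions with a peak in the other 5 lists and none in the list named, grey bars regions with a peak in that list alone. Both bars are highest for C57BL/6J Control, at 1478 and 3754 regions.

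Most members were open in A/J. Presence of an A/J peak was no criterion of the rule, but A/J peaks took part in the merging, and merging the 3 C57BL/6J lists alone gave 2106 members. One or more A/J lists held a peak at 1692 of the 2033 members, or 83.2% (81.5 to 84.8), where the share over all regions with a C57BL/6J peak was 73.4%. All 3 A/J lists held a peak at 1478 members, or 72.7% (70.7 to 74.6), against 63.8% over all regions with a C57BL/6J peak. These 1478 are the regions that lacked only the C57BL/6J Control peak, so that both counts are the same observation. Whatever the other A/J lists held, the A/J Control list held a peak at 1628 members, or 80.1% (78.3 to 81.8). The A/J HF list held a peak at 76.6% of members (74.7 to 78.4) and the A/J Reversal list at 79.1% (77.3 to 80.8). Over all regions with a C57BL/6J peak the shares were 68.5% for A/J Control, 70.1% for A/J HF and 66.5% for A/J Reversal, so that A/J HF was the lowest of the 3 among members and the highest among all these regions. A/J HF was also the lowest at regions with a C57BL/6J peak on HF alone, at 50.1% against 53.3% and 53.7%. On Reversal alone it was 50.2%, against 62.2% for A/J Control and 57.6% for A/J Reversal. In the classes with a C57BL/6J Control peak it was not the lowest. Over the 30873 regions with a C57BL/6J HF peak, members included, 83.1% had an A/J peak and 74.6% had all 3, close to the members' 83.2% and 72.7%.

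Few members repeated in A/J the pattern that defined them in C57BL/6J. Only 22 members, 1.08% (0.716 to 1.63), had an A/J HF and an A/J Reversal peak and no A/J Control peak, where 0.605% of all regions with a C57BL/6J peak did. Those 22 were 4.44% of the 495 merged regions with this pattern in A/J. An A/J HF peak without an A/J Control peak, whatever the Reversal list held, occurred at 44 members, or 2.16%, against a background of 4.37%. The opposite, an A/J Control peak without an A/J HF peak, occurred at 115 members, or 5.66%, against 2.82%. Of these 115 members, 88 had an A/J Reversal peak as well, which is 4.33% of all members, against 1.64% of all regions with a C57BL/6J peak. Neither share was particular to members. An A/J Control peak without an A/J HF peak occurred at 5.81% of regions with a C57BL/6J peak on HF alone. It was 15.3% on Reversal alone and 7.51% on Control and Reversal. The share was 3.37% on Control alone, 3.00% on Control and HF and 1.16% on all 3 diets. With an A/J Reversal peak too, it was 3.67% on HF alone, 10.3% on Reversal alone and 2.85% or less in the other classes.

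Classes of C57BL/6J regions differed widely in A/J presence. Of 1961 regions with a C57BL/6J peak on HF alone, 58.4% had an A/J peak, so that the share was 24.8 percentage points higher among members (22.0 to 27.5). Of 1676 regions with a peak on Reversal alone the share was 67.0%, and the difference was 16.2 points (13.4 to 18.99). The 25381 regions with a peak on all 3 diets stood at 88.1%, which put members -4.91 points from them (-6.64 to -3.29). The reverse class, 4387 regions with a peak on Control alone, had an A/J peak in 14.4% of cases and all 3 A/J peaks in 5.79%. Members thus lay near the regions open on every diet and far from those open on Control alone. For the pattern of HF and Reversal without Control in A/J, members and HF-only regions differed by 0.0113 points (-0.659 to 0.675), an interval that includes 0. From the regions open on all 3 diets they differed by 0.586 points (0.207 to 1.14) and from Control-only regions by 0.854 points (0.441 to 1.41). From Reversal-only regions members differed by -0.708 points (-1.55 to 0.0590). The difference was 0.348 points from regions on Control and HF (-0.335 to 0.987). It was 0.248 points from regions on Control and Reversal (-0.470 to 0.904). These last intervals all include 0.

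**Figure D2:**
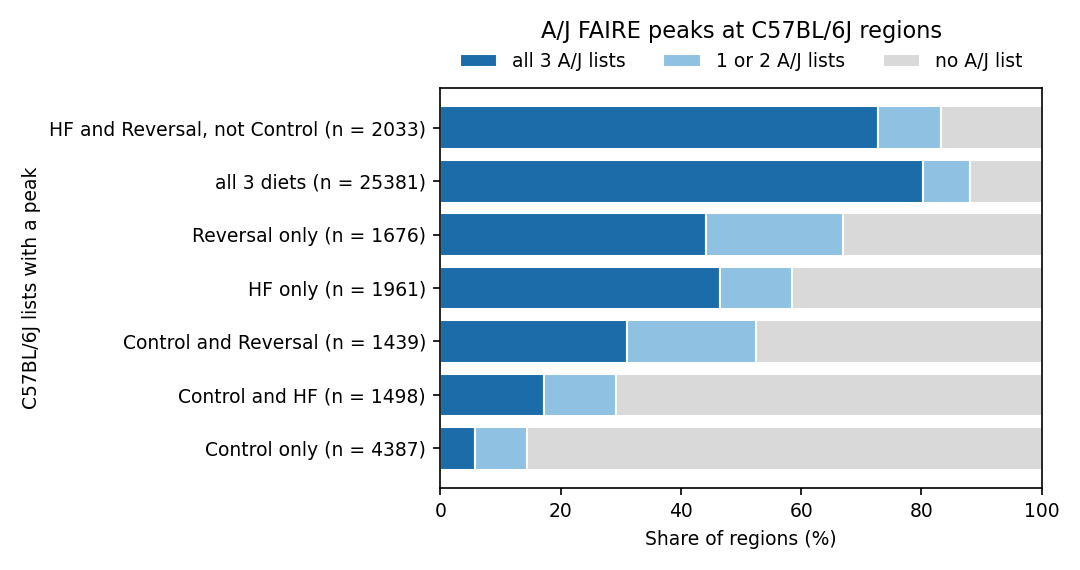
Share of regions in percent (x axis) with a peak in all 3, in 1 or 2, or in none of the A/J lists, for each pattern of C57BL/6J peaks (y axis). Regions gained and kept had all 3 A/J peaks in 72.7% of cases, against 46.5% for HF only and 5.79% for Control only.

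Members were weak peaks in the C57BL/6J HF and Reversal lists, though less weak there than other classes that lacked a peak on some diet. These ranks come from the lists that chose the members and are given as a description. The median rank was 79.9% of the HF list (quartiles 68.6 to 89.3) and 79.8% of the Reversal list (68.9 to 89.4). In the HF list it was 89.3% for HF-only regions and 88.1% for regions on Control and HF. In the Reversal list it was 90.3% for Reversal-only regions and 89.0% for regions on Control and Reversal. In the Control list, where members have no peak, the latter stood at 79.6% and regions on Control and HF at 77.5%. The HF signal of members ran from 0.0850 to 0.241 with a median of 0.105, and the Reversal signal from 0.0966 to 0.298 with a median of 0.122. No member ranked in the first 20% of either list, 3 ranked at 20 to 40% of the HF list, 221 at 40 to 60%, 805 at 60 to 80% and 1004 at 80 to 100%. In the last 5% of the HF list lay 234 members, 11.5%, just above its lowest signal of 0.0850. Members made up 3.64% of the HF regions ranked at 40 to 60%, 13.3% at 60 to 80% and 16.6% at 80 to 100%.

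A/J presence was higher for stronger members, and it remained higher than in other classes at like rank. With members ordered by mean rank and cut into 5 sets of like size, 95.3% of the strongest set had an A/J peak (92.8 to 97.0), against 71.4% of the weakest set (66.8 to 75.6), with 90.7%, 80.5% and 78.1% between them. At 40 to 60% of the HF list 95.9% of 221 members had an A/J peak, against 88.5% of 5800 regions open on all 3 diets, a difference of 7.44 points (3.87 to 9.54). At 60 to 80% the shares were 85.8% of members, 72.6% of regions open on all 3 diets and 70.4% of HF-only regions. At 80 to 100% they were 78.3%, 60.1% and 55.8%, so that members lay 18.2 points above the regions open on all 3 diets (14.9 to 21.3) and 22.5 points above HF-only regions (18.9 to 26.0). Over all ranks members lay below the regions open on all 3 diets, and within each of these 3 rank bins they lay above them.

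**Figure D3:**
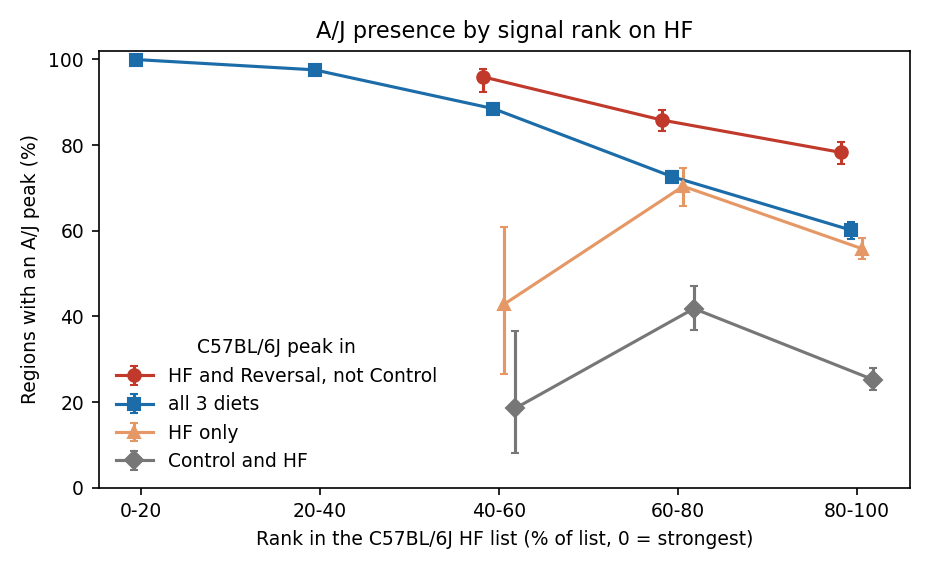
Share of regions that any A/J list also held (y axis, percent) by bins of 20% of the signal rank in the C57BL/6J HF list (x axis), for 4 patterns of C57BL/6J peaks. Bars are 95% Wilson intervals, bins with under 20 regions are left out, and members (red) lie above the other classes from 95.9% down to 78.3%.

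Where members had an A/J peak, it ranked higher in the A/J lists than the A/J peaks of other classes with a like rank on C57BL/6J HF. In the A/J Control list, members from the 60 to 80% bin of C57BL/6J HF had a median rank of 43.7% (quartiles 36.0 to 59.0, n = 676). HF-only regions of the same bin had 52.0% (n = 261) and regions open on all 3 C57BL/6J diets had 58.6% (n = 2851). In the 80 to 100% bin the medians in A/J Control were 54.8%, 61.9% and 67.2%. The A/J HF list gave the same order in both bins, with 54.3%, 56.8% and 63.9% at 60 to 80% and 66.5%, 70.7% and 74.0% at 80 to 100%. In the A/J Reversal list members stood at 44.3% and 56.1% in these bins, HF-only regions at 49.1% and 61.5%, and regions open on all 3 diets at 60.9% and 69.3%. The quartiles of these classes overlapped in every bin. Over all their ranks, members with an A/J Control peak reached 4.72% of that list at the strongest. Of these 1628, 8 lay in the first 20% of the A/J Control list and 527 at 20 to 40%.

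**Figure D4:**
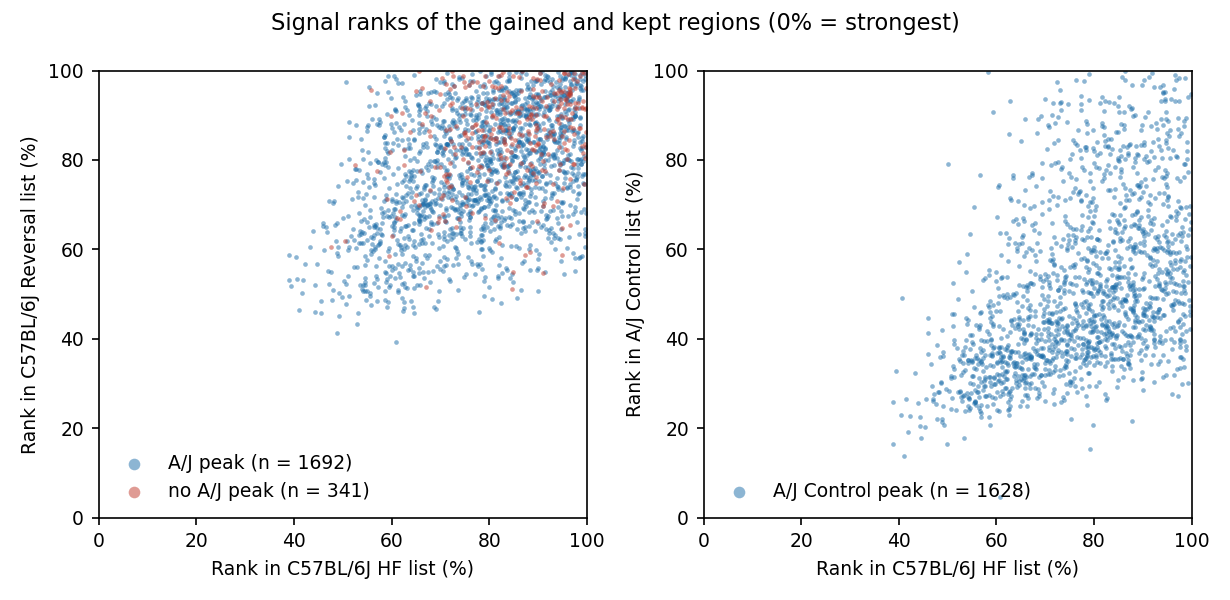
Signal ranks of the members, each point 1 region and 0% the strongest peak of a list. The left panel plots the rank in the C57BL/6J Reversal list against the rank in the C57BL/6J HF list for all 2033 members, red without an A/J peak, and the right panel the rank in the A/J Control list against that in C57BL/6J HF for the 1628 members with an A/J Control peak; no member lies in the first 20% of either C57BL/6J list.

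Members were narrower than regions open on all 3 diets, and their peaks lay at nearly the same place in each list. The median peak width was 327 bp on HF (quartiles 270 to 413) and 319 bp on Reversal (267 to 409), against 490 and 523 bp in regions open on all 3 diets. The other classes were narrower than members. On HF the median was 292 bp in HF-only regions and 267 bp in regions on Control and HF. On Reversal it was 288 bp in Reversal-only regions and 291 bp in regions on Control and Reversal. A single HF peak was held by 2021 members and a single Reversal peak by 2016. The summits of the strongest HF and Reversal peaks were a median of 11 bp apart, and 93.1% of members had them within 50 bp. In the weakest 20% of HF peaks the median was 11 bp for members and 9 bp for regions open on all 3 diets. The A/J Control summit lay a median of 10 bp from the C57BL/6J HF summit, within 50 bp at 90.6% of 1628 members. The widest member, on chromosome 15 from 82013730 to 82015615, owed its 1886 bp to A/J, where the Control peak was 1857 bp wide and the C57BL/6J HF peak 373 bp.

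Positions are given in mm9, 1-based, as starts and ends of merged regions. Genes at them are not named and no sequence is shown, because no genome or gene annotation of mm9 was used here. Regions on chromosome 18 were counted and not named. The strongest member by the mean of its HF and Reversal ranks lay on chromosome 7 from 35952795 to 35953607. Its HF signal was 0.2246 (rank 41.1%) and its Reversal signal 0.2385 (46.4%), and in A/J the signal was 1.25 on Control (13.9%), 0.838 on HF (18.2%) and 0.983 on Reversal (18.5%). It was thus in the first 20% of every A/J list, and the nearest C57BL/6J Control peak began 721 bp away.

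The next 5 members by mean rank also had peaks in all 3 A/J lists. They lay on chromosome 6 from 31040802 to 31041250, on chromosome 5 from 125729478 to 125729998, on chromosome 2 from 27480156 to 27480888, on chromosome 8 from 96887797 to 96888531 and on chromosome 4 from 104893165 to 104893887. Their HF ranks were 48.9%, 44.4%, 39.4%, 45.5% and 41.6%, and their ranks in A/J Control were 22.0%, 20.5%, 32.9%, 20.2% and 26.5%. The member on chromosome 8 was 209 bp from a C57BL/6J Control peak, and the member on chromosome 4 was 24204 bp from one. At the other end, the weakest member lay on chromosome 16 from 45160080 to 45160395, at 99.7% of the HF list and 99.6% of the Reversal list, with an A/J peak on Control alone.

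The 341 members without any A/J peak were weaker in C57BL/6J than those with all 3. Their median rank was 84.3% of the HF list and 86.4% of the Reversal list, against 77.6% and 76.9% for the 1478 members with all 3 A/J peaks. Their HF peaks had a median width of 318 bp, against 331 bp. The strongest of them, chromosome 6 from 129130315 to 129130875, had an HF signal of 0.187 (47.7%) and a Reversal signal of 0.169 (60.6%) and was 57081 bp from the nearest Control peak. The next, chromosome 2 from 172273865 to 172274216, had an HF rank of 50.5% and a Reversal rank of 61.9%. That on chromosome 17 from 24361005 to 24361318 had ranks of 59.5% and 58.6%. An A/J peak lay within 1000 bp of 80 of the 341, or 23.5% (19.3 to 28.2). Absence in A/J cannot be told apart from poorer mapping of A/J reads to the reference.

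The strongest of the 22 members with the same pattern in both strains were weak in A/J. On chromosome 2, the region from 127096878 to 127097362 ranked at 59.3% of the C57BL/6J HF and 68.9% of the C57BL/6J Reversal list, and at 92.6% of the A/J HF and 98.2% of the A/J Reversal list. It lay 183 bp from a C57BL/6J Control peak. The region on chromosome 6 from 116844216 to 116844555 stood at 83.5% and 93.1% of the A/J lists, and that on chromosome 5 from 124427196 to 124427549 at 83.7% and 84.0%. All 3 A/J peak pairs thus lay in the last 20% of their lists.

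The rule leaves out any region whose merged peaks include a Control peak, so that members lie apart from Control peaks by construction. The distance to the nearest C57BL/6J Control peak had a median of 6353 bp (quartiles 1920 to 17870), and 330 members, 16.2% (14.7 to 17.9), had one within 1000 bp. HF-only regions had a median of 8193 bp, with 16.8% within 1000 bp (15.2 to 18.5). The share of members with an A/J peak was 82.5% of the 189 up to 500 bp from a Control peak (76.5 to 87.3), 85.1% of the 141 at 500 to 1000 bp and 86.4% of the 568 at 1000 to 5000 bp (83.4 to 89.0). It was 83.1% of the 669 at 5000 to 20000 bp and 79.2% of the 466 beyond (75.3 to 82.6). From the nearest bin to the farthest, the median of the mean HF and Reversal rank was 80.7%, 78.4%, 78.8%, 80.3% and 80.9%. A difference by distance apart from rank was not tested. Just inside the rule, the members closest to a Control peak were 46, 54 and 56 bp from it. Outside it, no region on all 3 diets had a Control peak that overlapped both the HF and the Reversal peak by 1 to 50 bp. The 3 regions with the least overlap had short Control peaks of 185, 184 and 185 bp. Nearly their whole width, 178 to 185 bp, was shared with the HF and Reversal peaks. These Control peaks had signals of 0.0862, 0.0866 and 0.0884, at 98.2%, 97.7% and 95.2% of a Control list that ends at 0.0849.

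The names of the peaks show numbers missing from the lists. Each peak name holds a number per chromosome, which rose with position without exception in all 6 lists. The highest numbers sum to 244259 in C57BL/6J Control, of which 14.5% were deposited, against 20.4% on HF and 18.6% on Reversal. What a number skipped between neighbouring deposited peaks stands for is not stated. The 2032 members with a deposited Control peak on both sides lay in 1816 gaps of the Control list, and all 1816 gaps had at least 1 skipped number. No gap had fewer skipped numbers than members, and 82 had exactly as many. These gaps were long, with a median over members of 42469 bp and 10 skipped numbers, and of gaps over 100000 bp with no peak of the other 5 lists 99.3% had a skipped number too. Whether a Control peak below the end of the list lay at any member was not tested.

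At shorter lengths, gaps with no peak of the other 5 lists had skipped numbers less often than gaps with members. In gaps of 500 to 10000 bp, 278 of 278 with a member had a skipped number (98.6 to 100), against 60.6% of 7213 gaps with no peak of the other 5 lists (59.5 to 61.7). In the shortest gaps, of 500 to 2000 bp, it was 22 of 22 (85.1 to 100) against 44.0% of 2249 (41.9 to 46.0). Gaps of 500 to 10000 bp that held only A/J peaks had a skipped number in 91.9% of 891 cases, and those with HF-only regions and no member in 98.0% of 200 cases (94.97 to 99.2), an interval that overlaps that of member gaps. By region, 0 of 1676 Reversal-only regions and 7 of 1959 HF-only regions lay in a Control gap without a skipped number. In the A/J lists, gaps of 500 to 10000 bp that held a member with no A/J peak had a skipped number in 58 of 60 cases on Control, 50 of 51 on HF and 53 of 58 on Reversal. A/J gaps of that length with no peak of the other 5 lists had one in 62.8%, 61.0% and 55.5% of cases.

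**Figure D5:**
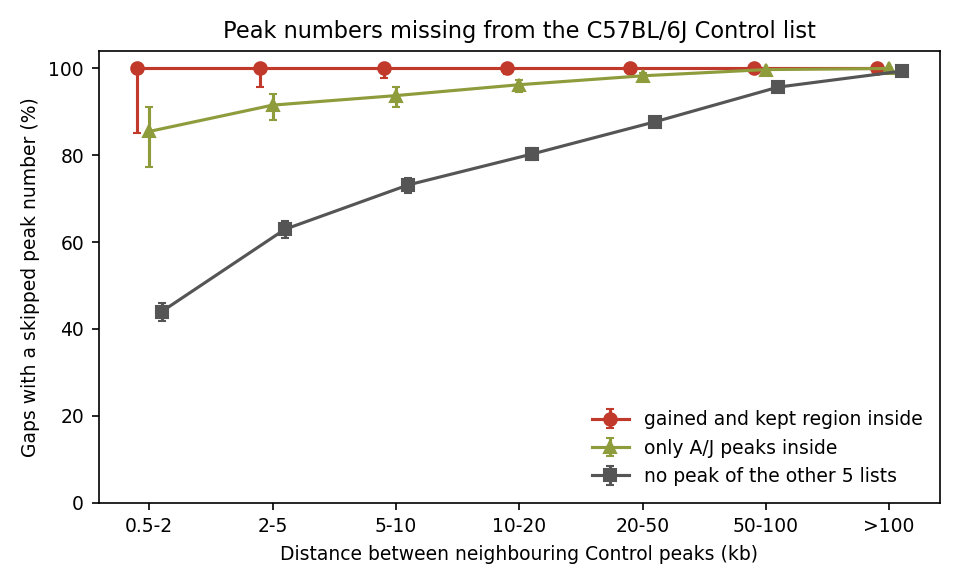
Share of gaps between neighbouring deposited C57BL/6J Control peaks in which at least 1 peak number was skipped (y axis, percent) by gap length (x axis, kb), with 95% Wilson intervals. Gaps that hold a gained and kept region are at 100% in every length class, and gaps without a peak of the other 5 lists start at 44.0%.

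Members were spread over all 19 chromosomes. They made up between 5.41% of the HF regions on chromosome 5 (4.51 to 6.48) and 7.98% on chromosome 6 (6.75 to 9.41), with the other 17 chromosomes between these. The share of members without an A/J peak ran from 11.7% on chromosome 19 to 24.1% on chromosome 18, with overlapping intervals (6.27 to 20.7 and 14.6 to 36.9).

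Neighbouring members were common at 100 kb. Another member lay within 100 kb of 47.6% of members (45.4 to 49.8), against 37.2% for the 1961 HF-only regions (35.1 to 39.4) and 38.7% for the 1676 Reversal-only regions (36.4 to 41.1). The 4387 Control-only regions stood at 35.3% within 100 kb, but within 1 Mb at 96.6% against 89.9% for members. These shares also depend on the number of regions in a class, and among the 476 members left with the 25000 strongest HF and Reversal peaks the share within 100 kb was 24.6%. Among HF regions that directly followed a member along a chromosome, 10.4% were members (9.13 to 11.8), against 6.32% of those that followed another HF region (6.04 to 6.61). In fixed stretches of 1 Mb, 917 of 2406 stretches with any peak held a member, and 290 held at least 3. Outside chromosome 18, the stretch with the most members, 10 of its 76 HF regions, was on chromosome 5 from 125000001 to 126000000, where 1 of the 10 lacked an A/J peak. Stretches with 9 members were on chromosome 11 from 5000001 to 6000000 (of 44 HF regions) and from 117000001 to 118000000 (of 80). The others were on chromosome 14 from 26000001 to 27000000 (of 61) and on chromosome 7 from 87000001 to 88000000 (of 56). Stretches were ordered by their number of members, not by the share of HF regions, which was 6.59% over all chromosomes.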

How the data were processed

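FAIRE-seq peaks of mouse liver were taken from 6 lists, 1 per strain and diet, with strain and diet known from the list names. Bowtie2, TopHat, DESeq2 and the build mm9 appear, without roles, in the submitters' processing notes; no source used here names a peak caller. The signal per peak is the value in the deposited lists, sorted downwards, on a scale that is not given. Values per library were not used here, and neither were the deposited expression tables, whose transcripts have no mm9 positions here.

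Peaks on chromosomes 1 to 19 were merged at 1 shared bp in Python 3.11.15 with pandas 2.3.3. The count of regions and members was the same with bedtools 2.31.1, and the merging was tested on simulated data. Where a region held several peaks of a list, the strongest was used. Distances count the bases between edges. A gap is the space between neighbouring deposited peaks of a list.

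Members, classes and comparisons were chosen with earlier results of these data known, and the peak numbers were examined after the lists were seen. Named regions were the 6 with the best mean rank, the 3 best without, with all and with the same A/J pattern, the 3 widest, the 3 closest to Control, 3 just outside the rule, the 2 weakest and the fullest stretches of 1 Mb, of which some are described. Stretches with tied counts were all named.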

Additional observations from a re-analysis of the deposited data

How the results depend on the processing

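Direction and size were recomputed under 7 alternatives for 10 results, 70 values in all, of which 45 stayed within the counting error of the reported value or, for the number of members, within 1.5 times of it. Of the differences between classes, only that in A/J presence between members and HF-only regions was recomputed, and it kept its sign. Ranks limit the results most. With the 25000 strongest HF and Reversal peaks set against the whole Control list, 476 members were left. Most members thus rest on an HF or Reversal peak beyond the 25000 strongest of its list. In the last 5% of the HF or the Reversal list lay a peak of 372 members, or 18.3%. Of the 476 members, 94.3% had an A/J peak and 90.1% had all 3, and the difference from HF-only regions was 17.8 points. The median ranks were 63.3% on HF and 64.8% on Reversal, the median HF width 365 bp, and 24.6% of members had another within 100 kb. With the 25000 strongest peaks of every list, 1864 members had median ranks of 61.7% and 61.1%, a width of 359 bp, the pattern of HF and Reversal without Control in A/J in 0.697%, a Control peak within 1000 bp in 14.1% and another member within 100 kb in 50.3%. With all lists at the length of the shortest, 32727 peaks, there were 2510 members, against 2033 with the lists as deposited. Of these 2510, 80.9% had an A/J peak, 68.9% had all 3 and 1.63% had that A/J pattern. Their median ranks were 78.6% and 78.0%, and 53.7% had another member within 100 kb. Both settings that cut every list also shortened the Control list. A region with a deposited Control peak beyond the cut could thus count as a member there. How many of the 1864 or the 2510 were among the 2033 was not counted. A Control peak within 1000 bp was found for 13.8% when peaks up to 100 bp apart were merged, 17.996% when HF and Reversal peaks had to share 50% of the shorter, 7.65% without members within 500 bp of Control, and 17.996% with the 3 C57BL/6J lists merged, an alternative added after the data were seen. Without members within 500 bp of Control, 43.7% had another within 100 kb.

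No paired analysis was possible because each group has 1 list and none per library. For the same reason no library was left out in turn. Lists end at different signals, and they hold no depth per library, so absence from a list has no detection limit in reads.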
